A study of Mus musculus with 3 samples.

Results

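The genes described here are 9 components of the Notch pathway: the receptors Notch1, Notch2 and Notch3, the ligands Jag1, Jag2 and Dll1, and the targets Hes1, Hey1 and Nrarp. They were chosen by gene symbol and make up 9 of the 32287 features counted in 1 droplet single-cell RNA sequencing matrix of mouse PC cells. PC cells were grown from esophageal organoids of mice with floxed Trp53, the gene of the tumour suppressor p53, which Ad-Cre-EGFP, an adenovirus carrying Cre recombinase and EGFP, was used to delete. Cdkn2a, which codes for p16 and p19Arf, brakes on the cell cycle, was next knocked out with CRISPR/Cas9, and the cells kept making Cas9. The dissociated cells were held in DMEM with 10% FBS and Y-27632, a kinase inhibitor, and without Y-27632 after 3 passages. A barcode library was transfected, the cells were expanded for 3 passages and live RFP-positive cells were sorted, about 1000000 sorted and about 20000 recovered per the labels. The Notch1 knockout named in the labels belongs to PCN organoids, not analysed here. The labels do not say whether PC is 1 clone or how many mice it came from. There is 1 sample and no replicate, so no test between cultures was possible, and every interval below is a 95% interval that covers counting error only.

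Notch receptors are transmembrane proteins that a ligand on a neighbouring cell activates. The metalloprotease Adam10 and then the gamma-secretase complex cut the bound receptor, and the freed intracellular part joins the DNA-binding protein Rbpj to switch on targets such as Hes1, Hey1 and Nrarp. In stratified epithelia such as the esophagus, Notch signalling is known for its part in moving basal cells towards squamous differentiation, and Notch1 is often mutated in esophageal epithelium.

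In GENCODE M21 on GRCm38, Notch1 (ENSMUSG00000026923) lies on chromosome 2 from 26457903 to 26516663 on the minus strand, and Nrarp (ENSMUSG00000078202) on the same chromosome from 25180758 to 25183339 on the plus strand. Notch2 (ENSMUSG00000027878) lies on chromosome 3 from 98013527 to 98150361 on the plus strand. Chromosome 17 holds Notch3 (ENSMUSG00000038146) from 32120820 to 32166852 and Dll1 (ENSMUSG00000014773) from 15367354 to 15376872, both on the minus strand. Jag1 (ENSMUSG00000027276) lies on chromosome 2 from 137081456 to 137116644 and Jag2 (ENSMUSG00000002799) on chromosome 12 from 112907819 to 112929776, both on the minus strand. Hes1 (ENSMUSG00000022528) lies on chromosome 16 from 30064384 to 30067796 on the plus strand and Hey1 (ENSMUSG00000040289) on chromosome 3 from 8663359 to 8667256 on the minus strand. UMIs were counted per whole gene, so exons, introns and isoforms cannot be told apart.

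The promoters of Nrarp and Notch3 are printed because both genes were higher in epithelial cells high in Ly6d or in secretory genes and lower in those high in Wfdc18, described further on, although they parted in dividing cells. Each run is the 250 bases before the start site in RefSeq on GRCm38.p6, read 5' to 3' on the gene's own strand, and capitals mark a match to the palindrome CACGTG, a motif searched after the windows were seen.
Nrarp, chr2:25180508-25180757, plus strand: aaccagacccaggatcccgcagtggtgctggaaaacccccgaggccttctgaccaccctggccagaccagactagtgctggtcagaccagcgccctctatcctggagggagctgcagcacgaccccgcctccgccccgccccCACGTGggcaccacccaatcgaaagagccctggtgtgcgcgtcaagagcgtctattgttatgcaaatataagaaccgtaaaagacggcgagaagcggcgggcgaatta
Notch3, chr17:32166891-32167140, minus strand: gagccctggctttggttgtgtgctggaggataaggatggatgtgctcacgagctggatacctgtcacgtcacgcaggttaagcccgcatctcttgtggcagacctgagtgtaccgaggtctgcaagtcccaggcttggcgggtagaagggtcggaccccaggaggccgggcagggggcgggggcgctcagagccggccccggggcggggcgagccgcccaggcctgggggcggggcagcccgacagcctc
The RBPJ core TGGGAA, searched with its reverse complement TTCCCA, was found in 0 of the 8 windows that RefSeq gave for 7 of the 9 genes, against 21.6% of all 32841 windows of this length. CACGTG was found in 1 of the 8, that of Nrarp, 108 bases before the start, against 6.02% of all windows. The absence of these letters from this window says nothing of Rbpj at other distances. RefSeq windows for Hes1 and Hey1 were not used here.

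The matrix held 18116 cell barcodes, and 14925 passed the filters of 500 or more genes, 1000 or more UMIs and a mitochondrial share of up to 20%. Kept cells had 45443280 UMIs in all, a median of 2955 per cell. A UMI is a count of 1 captured RNA molecule, and levels are given as CPM, UMIs of a gene per 1000000 UMIs of the cells named. Gates were set on marker UMIs after each cell was thinned at random to 1500 UMIs, which left out 1644 shallower cells. The epithelial gate took 10530 cells with at least 2 UMIs of Epcam, Cdh1, Krt5, Dsp, Cldn4 and Cldn7 and at most 1 UMI of 12 mesenchymal markers. The mesenchymal gate took 1169 cells with at least 3 UMIs of those 12, Vim, collagens, Grem1 and Zeb2 among them, and at most 1 epithelial UMI. A further 55 cells passed both minimums (mixed) and 1527 passed no gate. The 2 main gates had similar median depths, 3081 and 3297 UMIs, and similar mitochondrial shares, 2.69% and 2.85%. Of 6 basal markers of stratified epithelia, none used to gate, Krt14, Col17a1, Itga6, Trp63 and Itgb4 had a UMI in 89.6%, 61.9%, 46.0%, 35.9% and 28.5% of epithelial cells, but Krt15, a basal keratin, in 0.693%. These genes are not particular to the esophagus, so that origin rests on the label. Markers of squamous differentiation were scarce, at a summed 76.5 CPM in epithelial cells with 2 of 12 at 0 in kept cells. Of 8 immune and 7 endothelial markers, 5 and 6 had fewer than 5 UMIs in each of the 2 gates, including Ptprc and Cdh5 at 0.

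Over kept cells the 9 genes had 31245 UMIs, 0.0688% of all. All 9 were detected, and 81.5% of kept cells had a UMI of at least 1 of them (61.96% at 1500 UMIs). Of the receptors, Notch1 stood at 23.5 CPM (22.1 to 24.98), Notch2 at 42.0 CPM (40.2 to 44.0) and Notch3 at 8.47 CPM (7.65 to 9.36). Of the ligands, Jag1 stood at 210.1 CPM (205.9 to 214.3), Jag2 at 28.8 CPM (27.3 to 30.4) and Dll1 at 6.03 CPM (5.34 to 6.79). Of the targets, Hes1, a transcriptional repressor, stood at 356.7 CPM (351.2 to 362.2), Nrarp, an inhibitor of Notch signalling that Notch itself induces, at 10.8 CPM (9.83 to 11.8), and Hey1, a repressor related to Hes1, at 1.14 CPM (0.855 to 1.501). These levels are not scaled to transcript length and are not ranked against each other. Hes1 and Jag1 together gave most of the UMIs, 51.9% and 30.6% of the 31245, while Hey1 rested on 52 UMIs and Dll1 on 274. A UMI of Hes1 was found in 56.5% of kept cells and one of Jag1 in 42.4%, and the remaining 7 genes were each found in 0.342% to 11.7%. No cell type here is known to lack these genes, so a share with a UMI is not taken for a share of expressing cells.

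The first comparison set the epithelial gate against the mesenchymal gate. Notch1 and Jag2 were higher in epithelial cells and Nrarp was higher in mesenchymal cells, while Hes1 was at nearly the same level in both. A gene is called past the fold here at a ratio of at least 1.5, with a higher level of at least 10 CPM and at least 20 UMIs over both sets of cells. By this rule 6 of the 9 genes could be called; 2 were past the fold towards epithelial cells, where 21.2% of 9113 genes were, and 1 towards mesenchymal cells, where 20.3% were. A share of 3 in 6 beside these backgrounds is not read as a property of the pathway.

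Among receptors, Notch1 had 904 UMIs in epithelial cells, 26.5 CPM (24.8 to 28.3), and 22 UMIs in mesenchymal cells, 5.58 CPM (3.50 to 8.45). The ratio was 4.75 (3.12 to 7.63) and the 2 intervals did not overlap. Notch3, a receptor best known from vascular smooth muscle, went the same way, with 9.46 CPM against 1.78 CPM, a ratio of 5.32 (2.55 to 13.3), but stayed under the 10 CPM minimum and rested on 7 mesenchymal UMIs. Notch2 went the other way, at 38.3 CPM (36.2 to 40.4) in epithelial and 56.3 CPM (49.2 to 64.3) in mesenchymal cells. This was 1.47-fold higher in mesenchymal cells (1.27 to 1.698), just short of the fold, and past it in 5 of 14 alternatives. Notch2 was thus the receptor that stood higher in mesenchymal cells, where it had 222 UMIs.

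Among ligands, Jag2 stood at 33.0 CPM (31.1 to 35.0) in epithelial cells and at 2.03 CPM (0.877 to 4.001), from 8 UMIs, in mesenchymal cells. The ratio of 16.3 (8.23 to 37.8) was the highest of the 6 genes that could be called. Dll1 had 246 UMIs in epithelial cells and 1 in mesenchymal cells, a ratio of 28.5 (5.06 to 1129), with both levels under the minimum. Jag1 was found in both gates, at 209.8 CPM (205.0 to 214.7) and 140.3 CPM (128.9 to 152.5), a ratio of 1.49 that was just short of the fold. Jag1 was thus the 1 ligand of the 3 with more than 8 UMIs in mesenchymal cells.

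Among targets, Hes1 stood at 348.8 CPM (342.6 to 355.2) in epithelial and 384.0 CPM (364.9 to 403.8) in mesenchymal cells. Nrarp stood at 7.52 CPM (6.62 to 8.497) and 34.5 CPM (29.0 to 40.8), 4.59-fold higher in mesenchymal cells (3.70 to 5.67). Hey1 was 13.3-fold higher there (6.29 to 29.1), from 20 mesenchymal and 13 epithelial UMIs, under the minimum level. The 3 targets therefore differed among themselves: Nrarp and Hey1 stood higher in mesenchymal cells, and Hes1 hardly differed. That gate had less Notch1 and Notch3 and more Notch2, the last short of the fold. In the 55 mixed cells, with a median of 4012 UMIs, Nrarp stood at 13.9 CPM (2.87 to 40.6) and Jag2 at 23.2 CPM (7.52 to 54.1), from 3 and 5 UMIs, intervals too wide to place them.

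The members were set beside 6 basal genes that set no gate, by the mesenchymal level as a share of the epithelial level. Such a share may mix carried-over RNA with RNA of the mesenchymal cells, so none is a measure of carry-over. In mesenchymal cells Krt15, at 4.23 CPM in epithelial cells, stood at 0. Trp63 stood at 2.12% of its epithelial level, Col17a1 at 3.08%, Krt14 at 11.6%, Itgb4 at 16.01% and Itga6 at 23.6%. Dll1 at 3.51% and Jag2 at 6.15% lay nearer to Trp63 and Col17a1, and Notch3 at 18.8% and Notch1 at 21.0% nearer to Itgb4 and Itga6. A UMI of Notch1 was found in 1.88% of mesenchymal cells, of Jag2 in 0.684%, of Notch3 in 0.599% and of Dll1 in 0.0855%. Whether these UMIs came from the mesenchymal cells or from carried-over RNA was not tested. With only mesenchymal cells of 0 epithelial UMIs, the ratios were 5.46 for Notch1, 19.3 for Jag2, 11.03 for Notch3 and 0.204 for Nrarp. Division differed between the gates too: the 12 mitosis markers summed to 882.6 CPM in epithelial and 276.6 CPM in mesenchymal cells. Within cells of 0 mitosis UMIs the ratio was 3.79 (2.48 to 6.09) for Notch1, 13.8 (6.97 to 32.1) for Jag2 and 0.192 for Nrarp, so the 3 calls held there, and Jag1 at 1.60 and Notch3 at 5.23 were past the fold as well. Both of these subsets were chosen after the values were seen.

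**Figure D1:**
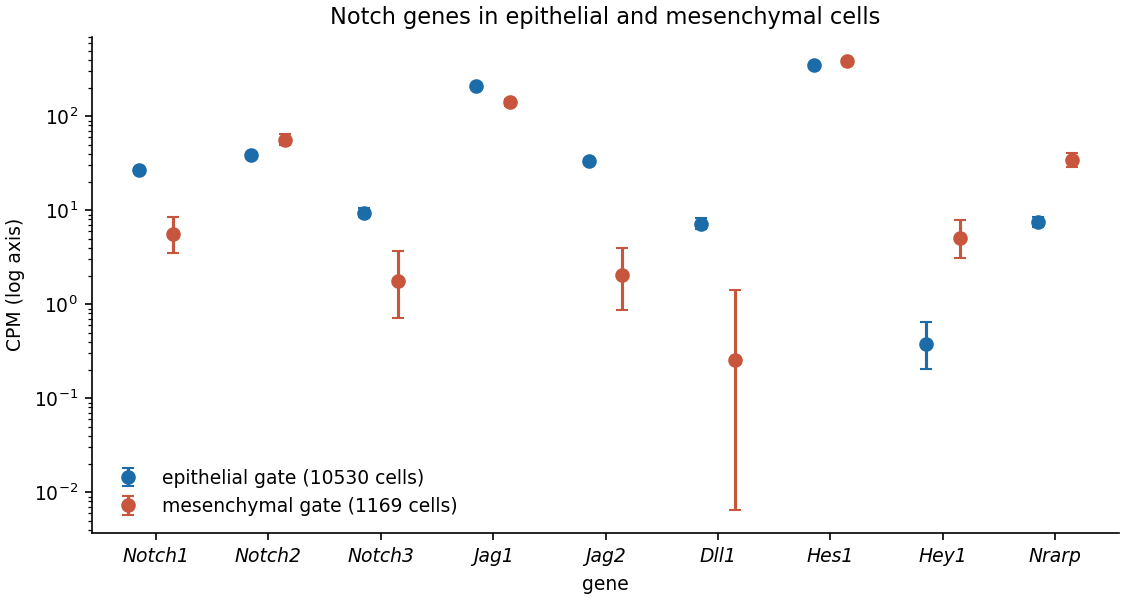
Levels of the 9 Notch genes in CPM on a log axis, in cells of the epithelial gate (blue) and the mesenchymal gate (red); bars are exact 95% Poisson intervals. Notch1, Notch3, Jag2 and Dll1 sit higher in epithelial cells, Nrarp and Hey1 sit higher in mesenchymal cells, and the pairs of Hes1, Jag1 and Notch2 lie close together.

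The rest of the pathway was described from a list of 56 further genes, of which 38 could be called. Past the fold were 2 towards epithelial cells, where 21.2% of all 9113 genes were, and 6 towards mesenchymal cells, where 20.3% were. The median log2 ratio of epithelial over mesenchymal was -0.17, against 0.02 over all 9113 genes. Counts by role stand beside the same shares and are not read as a property of a role. Both epithelial ones were corepressors, Tle4 at 3.17-fold (1.87 to 5.86) and Ctbp1 at 1.60-fold (1.40 to 1.84). Of the 8 genes of receptor cleavage, 3 were higher in mesenchymal cells, all of them parts of gamma-secretase: Aph1b 2.56-fold (2.001 to 3.26), Psen2 2.004-fold (1.55 to 2.56) and Ncstn 1.66-fold (1.46 to 1.87). Their partners Psenen and Aph1a did not pass the fold, at epithelial over mesenchymal ratios of 1.11 and 1.42. Maml3, a coactivator of the Notch complex, was 1.83-fold higher in mesenchymal cells (1.64 to 2.03), Poglut1, which adds glucose to Notch repeats, 1.74-fold (1.44 to 2.10), and Dtx3, an E3 ubiquitin ligase of the Deltex family, 1.64-fold (1.26 to 2.10). Rbpj, at 52.6 CPM in epithelial and 71.3 CPM in mesenchymal cells, was short of the fold.

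Other members of the gene families were at or near 0. Notch4 had 22 epithelial and 4 mesenchymal UMIs, Dll3 had 5 and 2, Dll4 had 3 and 0, and Hes5 had 1 and 0. Heyl and Mfng had 0 UMIs in both gates, where 3 UMIs would give 0.0881 CPM in the epithelial one. Hey2, the closest relative of Hey1, had 19 epithelial and 29 mesenchymal UMIs, a level 13.2-fold higher in mesenchymal cells (7.15 to 24.9) and under the minimum. Hey1 and Hey2 thus lay on the same side with Nrarp. Lfng, the Fringe enzyme that extends sugars on Notch and changes which ligands it answers to, had 166 epithelial UMIs and 1 mesenchymal UMI, a ratio of 19.2 (3.40 to 763.2), also under the minimum.

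**Figure D2:**
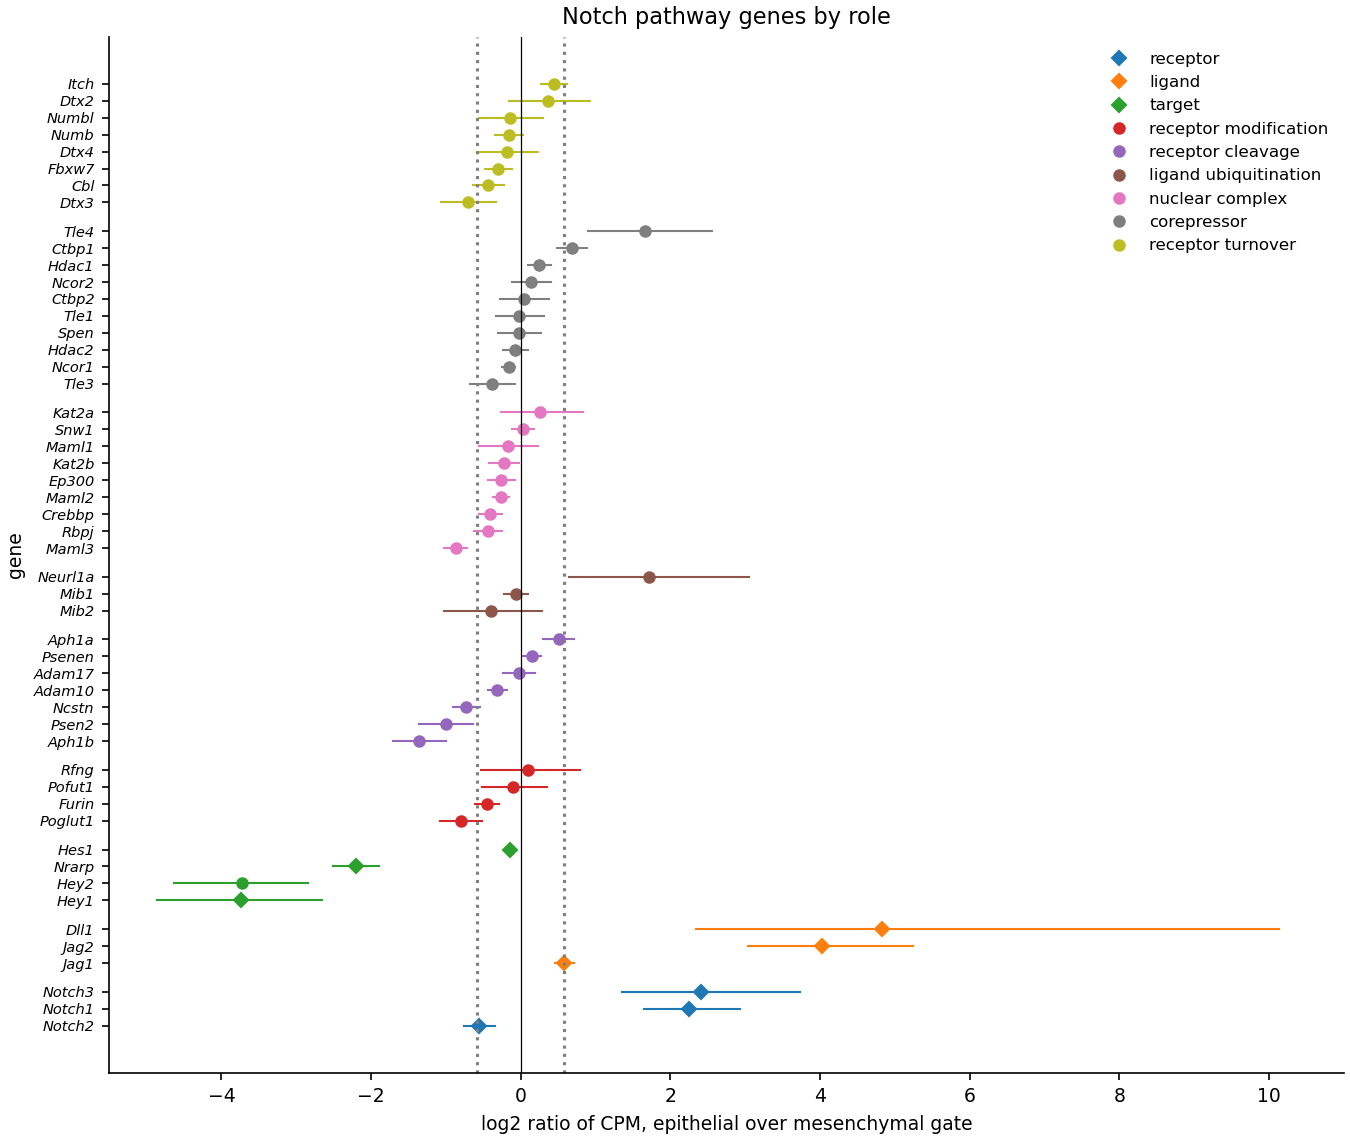
Log2 ratio of CPM, epithelial over mesenchymal gate, for the Notch pathway genes reported here with at least 20 UMIs and a higher level of at least 5 CPM, coloured by role, with exact 95% intervals. Diamonds are the 9 genes, circles the other pathway genes, and dotted lines mark ratios of 1.5 in each direction. The interval of Dll1, which rests on 1 mesenchymal UMI, is the widest of the 9 genes, and most corepressors, nuclear factors and turnover genes lie near 0.

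The second comparison asked how the genes varied among epithelial cells. For each of 13 marker lists, cells were called high at a thinned marker sum of at least 2 and at least the 90th percentile of the gate, and low at or under the 25th percentile. The sets of different lists share cells, so their results are not independent of each other. In all, 25 combinations of gene and list were past the fold. Among all genes callable in a list, 1.29% to 15.8% were past it upwards and 1.23% to 18.0% downwards, as given per list below. The 25 is not read as a property of the pathway. Notch3 was past it in 7 lists, Nrarp in 6 and Jag2 in 5, Jag1 in 3, and Notch1 and Notch2 in 2 each. Nrarp could be called in those 6 lists only, being under the 10 CPM minimum in the others. Its count is therefore not comparable with those of genes callable in all 13. At 7.52 CPM over the epithelial gate, Nrarp reached the minimum in those 6 lists only through the set where it was higher. Its calls there were thus favoured by the minimum itself. The counts per list below that include Nrarp are not read against the shares of all genes. Hes1 was past it in none, with ratios from 0.752 to 1.32, and Dll1 and Hey1 were under the minimum level in every list. Hes1 thus had the narrowest range of the 7 genes that could be called in any list. It also had the most UMIs. The lowest ratios of Notch1 and Notch2, 0.507 and 0.346, came from 4 UMIs each in squamous-high cells, where Hes1 had 109. The part of counting error in these ranges was not tested.

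Cells high in Ly6d, a small lipid-anchored surface protein, showed the widest Notch3 difference. The 1093 high cells had at least 6 Ly6d UMIs and the 6534 low cells had 0. Of 7 genes that could be called, 2 were higher in high cells, where 5.78% of 8653 genes were, and 2 were lower, where 9.89% were. Nrarp was among the 7 only through its level in high cells. Notch3 stood at 26.8 CPM (21.6 to 32.8) in high cells and 6.30 CPM (5.27 to 7.47) in low cells, a ratio of 4.25 (3.22 to 5.59). Nrarp stood at 16.6 CPM (12.6 to 21.5) against 5.87 CPM (4.88 to 7.003), a ratio of 2.83 (2.03 to 3.90). Both jagged ligands went the other way. Jag2 was at 13.7 CPM (10.1 to 18.2) in high and 37.0 CPM (34.4 to 39.7) in low cells, 2.70-fold lower (2.01 to 3.71), and Jag1 was at 141.1 CPM (128.8 to 154.2) and 229.5 CPM (223.1 to 236.1), 1.63-fold lower (1.48 to 1.79). Dll1 had the same direction as the jagged ligands, 2.91 against 8.06 CPM from 10 UMIs in high cells, under the minimum. Notch1, at 34.9 against 24.8 CPM, and Hes1, at 431.5 against 327.8 CPM, were 1.41-fold (1.15 to 1.72) and 1.32-fold (1.24 to 1.39) higher, short of the fold. The high cells held a median of 2975 UMIs and the low cells 3068.5, and their mitochondrial shares were 3.28% and 2.60%.

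Cells high in Ltf and Lcn2, which encode the secreted iron-related proteins lactoferrin and lipocalin-2, showed a like pattern. Of 7 genes, 2 were higher in the 852 high cells than in the 9064 low cells, where 7.74% of 8747 genes were, and 2 were lower, where 8.12% were. Nrarp stood at 19.0 CPM (14.2 to 25.04) against 6.19 CPM (5.32 to 7.16), a ratio of 3.08 (2.21 to 4.22), and Notch3 at 20.9 CPM (15.8 to 27.1) against 7.96 CPM (6.97 to 9.04), a ratio of 2.63 (1.93 to 3.53). Jag2 was at 12.3 CPM (8.48 to 17.3) in high and 35.7 CPM (33.6 to 37.9) in low cells, 2.90-fold lower (2.05 to 4.23). Jag1 was at 103.8 CPM (92.0 to 116.8) and 223.6 CPM (218.2 to 229.0), 2.15-fold lower (1.91 to 2.44). Receptor Notch3 and target Nrarp were thus higher where both ligands were lower, and Notch1 at 22.8 against 26.7 CPM did not follow Notch3. Of 37 other pathway genes that could be called here, 1 was past the fold upwards and 3 downwards, beside the same shares of all genes. The 1 upwards was Rbpj, named after its value was seen, at 84.0 against 49.8 CPM, a ratio of 1.69 (1.46 to 1.94). These counts are not read as a property of the pathway. The mitochondrial share was 3.69% in high and 2.60% in low cells, and the part of RNA quality in either pattern was not tested.

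The Ly6d and secretory sets shared 312 cells, 28.5% of the Ly6d-high and 36.6% of the secretory-high cells. They were therefore crossed, a step added after the values were seen. Among secretory-low cells, Ly6d-high cells had a Notch3 level 4.74 times that of Ly6d-low cells (3.36 to 6.61), Nrarp 3.32 times (2.18 to 4.96) and Notch1 1.55 times (1.20 to 1.96), past the fold here. Among the same cells Jag2 was at 0.510 times (0.361 to 0.701) and Jag1 at 0.682 times (0.609 to 0.763). Among Ly6d-low cells, secretory-high cells had Nrarp at 4.94 times the level of secretory-low cells (2.92 to 7.98), Jag1 at 0.404 times (0.321 to 0.502) and Jag2 at 0.398 times (0.211 to 0.685). There the Notch3 ratio was 2.07 (0.965 to 3.95), from 10 UMIs, with an interval that includes 1. Among secretory-high cells, Ly6d-high cells had Notch3 at 2.39 times the level of Ly6d-low cells (1.12 to 5.56), Jag2 at 0.354 times (0.0988 to 1.06) and Jag1 at 1.13 times (0.838 to 1.54). Nrarp there leaned the other way, at 14.0 CPM from 13 UMIs against 24.6 CPM from 21, a ratio of 0.569 (0.262 to 1.19). Among Ly6d-high cells, secretory-high cells had Nrarp at 0.845 times (0.409 to 1.64), Notch3 at 1.04 times (0.629 to 1.69), Jag1 at 0.670 times (0.531 to 0.8401) and Jag2 at 0.276 times (0.0851 to 0.7001). Notch3 was thus higher with Ly6d at both secretory levels, Jag2 was below 1 in all 4 contrasts, with an interval that includes 1 in one of them, and Nrarp was past the fold upwards in the 2 contrasts within low cells of the other marker. Whether these ratios differ between the high and low cells was not tested.

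Bins of marker UMIs, also added later, showed the course. From 0 to 16 or more Ly6d UMIs per 1500, Notch3 went through 6.30, 6.35, 11.5, 15.6, 29.1 and 40.0 CPM, the last from 24 UMIs (25.7 to 59.6). Jag2 went through 37.0, 37.1, 27.6, 25.3, 10.6 and 5.01 CPM, the last from 3 UMIs (1.03 to 14.6). Nrarp went from 5.87 CPM at 0 to 18.4 CPM at 16 or more (9.16 to 32.8), and Jag1 from 229.5 to 105.1 CPM. The intervals of the first and last bins did not overlap for any of these 4 genes. Along Ltf and Lcn2, Jag2 went from 35.7 CPM in cells with 0 UMIs to 0 UMIs in the 83 cells with 16 or more, which allows up to 14.8 CPM. Notch3 reached 35.6 CPM (21.1 to 56.2) at 8 to 15 UMIs and stood at 16.02 CPM (4.37 to 41.0) from 4 UMIs at 16 or more.

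**Figure D3:**
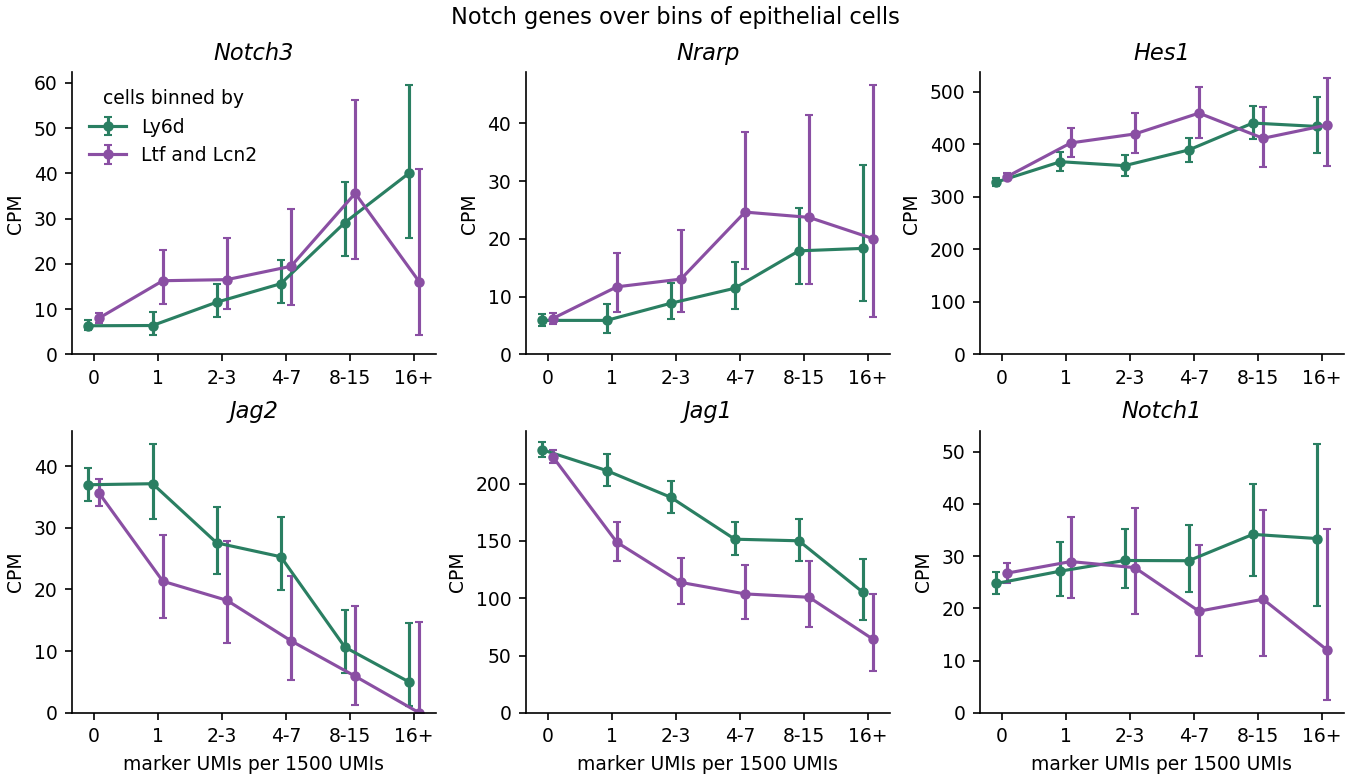
Levels in CPM of 6 Notch genes over bins of epithelial cells by UMIs of Ly6d (green) or of Ltf and Lcn2 (purple) per 1500 UMIs; bars are exact 95% Poisson intervals. With more Ly6d, Notch3 and Nrarp stand higher and Jag2 and Jag1 lower; the last purple bins hold 83 cells and have wide intervals.

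Cells high in Wfdc18, a small secreted protein, had the opposite pattern. Of 7 genes, 1 was higher in high cells, where 2.77% of 8606 genes were, and 2 were lower, where 8.25% were. Jag2 stood at 46.2 CPM (39.1 to 54.2) in high and 29.99 CPM in low cells, 1.54-fold higher (1.26 to 1.87). Notch3 was 3.66-fold lower (2.03 to 7.23), at 3.67 CPM from 12 UMIs against 13.4 CPM, and Nrarp 3.38-fold lower (1.78 to 7.23), at 3.06 CPM from 10 UMIs against 10.3 CPM. Of these 1059 cells, 3.49% were Ly6d-high, where 10.4% of all epithelial cells were, so the 2 splits of cells are not separate.

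Cells high in 7 chemokines, Cxcl1, Cxcl5 and Ppbp among them, had more Notch3 and less of most other members. Of 6 genes, 1 was higher in high cells, where 4.98% of 8679 genes were, and 4 were lower, where 14.9% were. Notch3 stood at 15.3 against 7.005 CPM, 2.18-fold higher (1.53 to 3.11). Jag2 was 1.85-fold lower (1.48 to 2.34), Jag1 1.80-fold (1.65 to 1.97), Notch1 1.61-fold (1.25 to 2.08) and Notch2 1.51-fold (1.24 to 1.85). The high cells were also deeper, with a median of 3879 UMIs against 2625, and 10 of 38 other pathway genes were lower in them with 0 higher; the part of depth was not tested. The Notch2 difference was past the fold in 4 of 14 alternatives. Of the chemokine-high cells, 19.6% were Ly6d-high and 23.2% secretory-high, where 10.4% and 8.09% of all epithelial cells were. The chemokine split is therefore not separate from those 2.

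Division went with less Notch3. Between the 1253 cells high in 12 mitosis markers and the 7811 low cells, 1 of 7 genes was higher, where 11.2% of 8757 genes were, and 1 lower, where 7.7% were. Notch3 stood at 4.77 CPM (3.02 to 7.15) in dividing cells and 10.9 CPM in low cells, 2.29-fold lower (1.497 to 3.68). Only 4.23% of the mitosis-high cells were Ly6d-high and 2.71% secretory-high, where 10.4% and 8.09% of all epithelial cells were, so these splits are not separate. Nrarp was 1.65-fold higher (1.19 to 2.27), 10.99 against 6.65 CPM, a call lost in 3 of 13 alternatives, another random seed among them, and Notch1 1.39-fold higher (1.16 to 1.65), short of the fold. Within epithelial cells of 0 mitosis UMIs the Ly6d ratios were 4.24 for Notch3 and 4.29 for Nrarp. In the whole epithelial gate they were 4.25 and 2.83. A count of 0 mitosis UMIs may not leave out every dividing cell, and the part of division was not tested. In cells high in DNA replication genes 0 of 6 genes were past the fold, against 9.95% of genes higher and 4.35% lower.

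In cells high in Krt7 and the subunits of laminin-332, a basement membrane protein, Notch3 was 1.72-fold lower (1.25 to 2.40), the 1 of 6 genes past the fold, where 1.23% of genes were lower and 2.91% higher. Of these cells 5.74% were Ly6d-high, where 10.4% of all epithelial cells were, so the 2 splits are not separate. In cells high in Ly6c1 and Pate14, Nrarp was 1.504-fold higher (0.809 to 2.58) from 14 UMIs, the 1 of 7 past the fold, where 4.62% of genes were higher and 6.22% lower; its interval includes 1. The 96 cells high in differentiated squamous markers had 5 of 7 genes past the fold, Nrarp and Notch3 higher and Notch1, Notch2 and Jag2 lower, but each from 4 to 6 UMIs. There 14.4% of genes were higher and 18.0% lower, and only the interval of Notch2, 2.89-fold lower (1.13 to 10.6), left out 1. At this depth the cells with differentiation markers cannot be told from the others for most of the 9 genes. Of the 96 cells, 40.6% were also Ly6d-high.

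In 4 further lists none of the 6 genes that could be called was past the fold. In basal-high cells 2.71% of genes were higher and 3.77% lower, and Notch1 stood at 25.1 against 26.7 CPM and Jag1 at 229.4 against 186.1 CPM. For targets of the growth regulator YAP the backgrounds were 1.29% and 1.34%, for interferon response genes 2.49% and 1.25%, and for the nuclear RNAs Malat1 and Neat1 15.8% and 10.0%. In the last, 9 of 37 other pathway genes were higher and 1 lower. In the mesenchymal gate, the 52 cells high in mitosis markers had 0 of 4 genes higher, where 19.1% of genes were, and 2 lower, where 20.5% were: Nrarp at 13.7 against 34.6 CPM and Notch2 at 32.1 against 58.2 CPM. These rested on 3 and 7 UMIs, and both ratios, 2.52-fold lower (0.842 to 12.4) and 1.82-fold lower (0.865 to 4.58), had intervals that include 1.

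**Figure D4:**
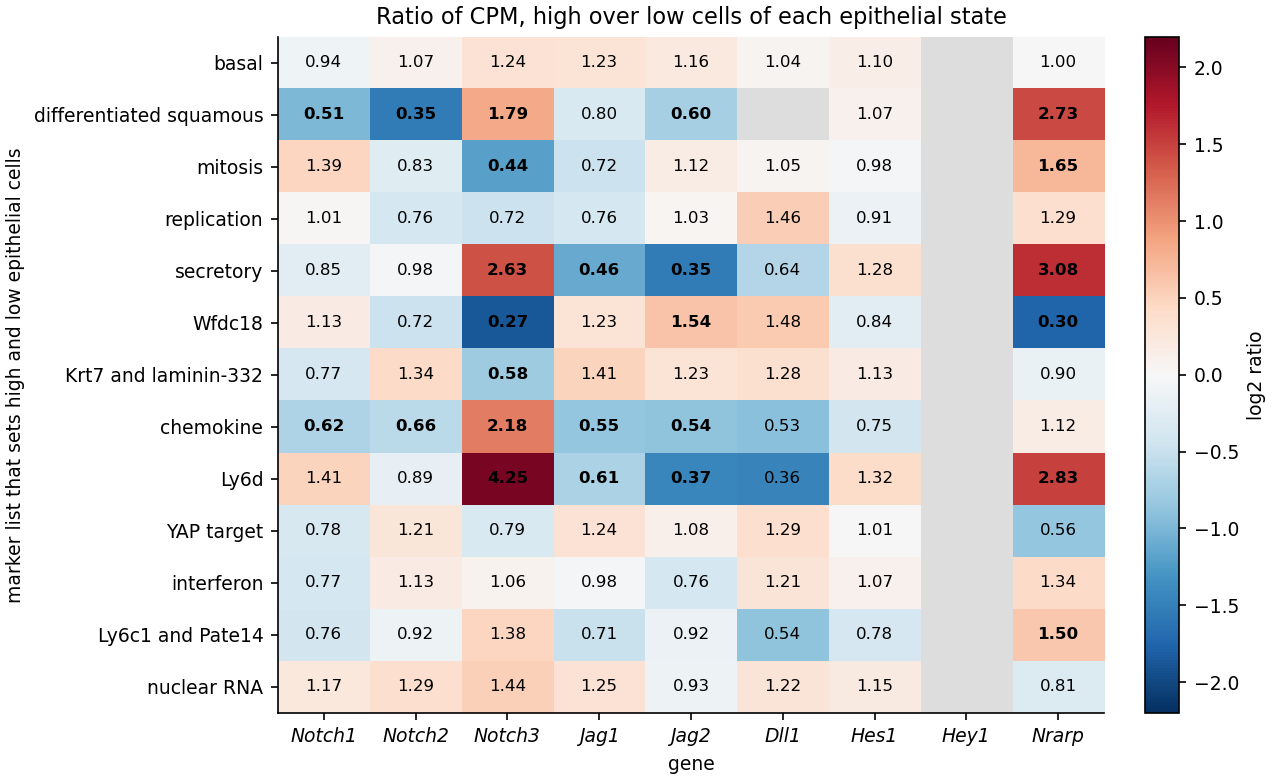
Ratio of CPM in high over low epithelial cells for each marker list and Notch gene, coloured by log2 ratio and in bold where past the fold; grey marks Hey1, with too few UMIs, and Dll1 where high cells had 0. Notch3 and Nrarp share red squares for Ly6d and secretory genes and blue ones for Wfdc18, and the Hes1 column stays between 0.75 and 1.32.

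The spread of Hes1 and Jag1 from cell to cell was described as well. At 1500 UMIs per epithelial cell its variance-to-mean ratio was 1.29, and that of Jag1 was 1.17, against a median of 1.04 over 2599 genes. Of these genes 8.85% lay above Hes1 and 14.0% above Jag1. The mean was 0.547 UMIs per cell for Hes1 and 0.338 for Jag1. Both were set against the same 2599 genes and not against genes of like mean, so the part of level was not tested. A cell of the epithelial gate held up to 11 Hes1 UMIs and up to 8 of Jag1.

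Co-variation within cells was weak. At 1500 UMIs, Pearson r over 10530 epithelial cells lay between -0.029 and 0.031 for every pair of the 9 genes, and in counts this sparse it is given as a description only. Levels were also compared between cells with and without a UMI of a second gene. Of 72 ordered pairs 44 could be compared, 6 were past the fold upwards and 5 downwards, each unordered pair giving up to 2 of these. The share of all genes past the fold upwards and downwards was 5.7% and 6.72% by a Notch1 UMI, 4.4% and 4.02% by Notch2, 15.4% and 16.3% by Notch3, 0.362% and 0.746% by Jag1, 5.77% and 4.92% by Jag2, and 20.1% and 18.1% by Nrarp. The 6 calls in cells split by Notch3 or Nrarp lie beside the highest of these shares, and nothing is read from them. Nrarp was 2.55 times as high in cells with a Notch1 UMI (1.28 to 4.62), and 11 cells held both where 4.64 would at independence, a call kept in 7 of 7 alternatives. With a Notch3 UMI Nrarp was 2.88 times as high (0.918 to 6.91) from 5 cells with both, and with a Notch2 UMI 1.57 times (0.765 to 2.92), intervals that include 1. The call with Notch2 was lost in 2 of 7 alternatives, in one of which the ratio was 0.975. Only with Notch1 did the Nrarp interval leave out 1, but the intervals with Notch1, Notch2 and Notch3 overlapped. The receptors are therefore not set apart by it.

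In 2 pairs of a receptor and a ligand the ratio was low at 1500 UMIs per cell, and short of the fold at 2000. Notch1 stood at 0.506 times its level in cells with a Jag2 UMI (0.251 to 0.916), with 10 cells holding both where 20.8 would at independence, but at 0.748 times thinned to 2000 UMIs (0.474 to 1.13) and 0.689 times thinned to 1000 (0.251 to 1.52). Notch3 stood at 0.462 times in cells with a Jag1 UMI (0.280 to 0.730), with 21 cells against 40.2, and at 0.687 times thinned to 2000 (0.473 to 0.979). Jag2 with Nrarp, at 0.331 times (0.0397 to 1.20), rested on 2 UMIs. Hes1 was past the fold with none of the other genes, at 0.919 to 1.21 times. In the 1169 mesenchymal cells 9 pairs could be compared; Nrarp was 1.88 times as high with a Hes1 UMI (1.05 to 3.37), where 7.3% of genes were past the fold upwards and 7.55% downwards. Nrarp with Notch2 and with Jag1 was past the fold downwards from 2 and 6 UMIs, where 23.9% and 13.2% of genes were, and 12.9% and 8.75% upwards.

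**Figure D5:**
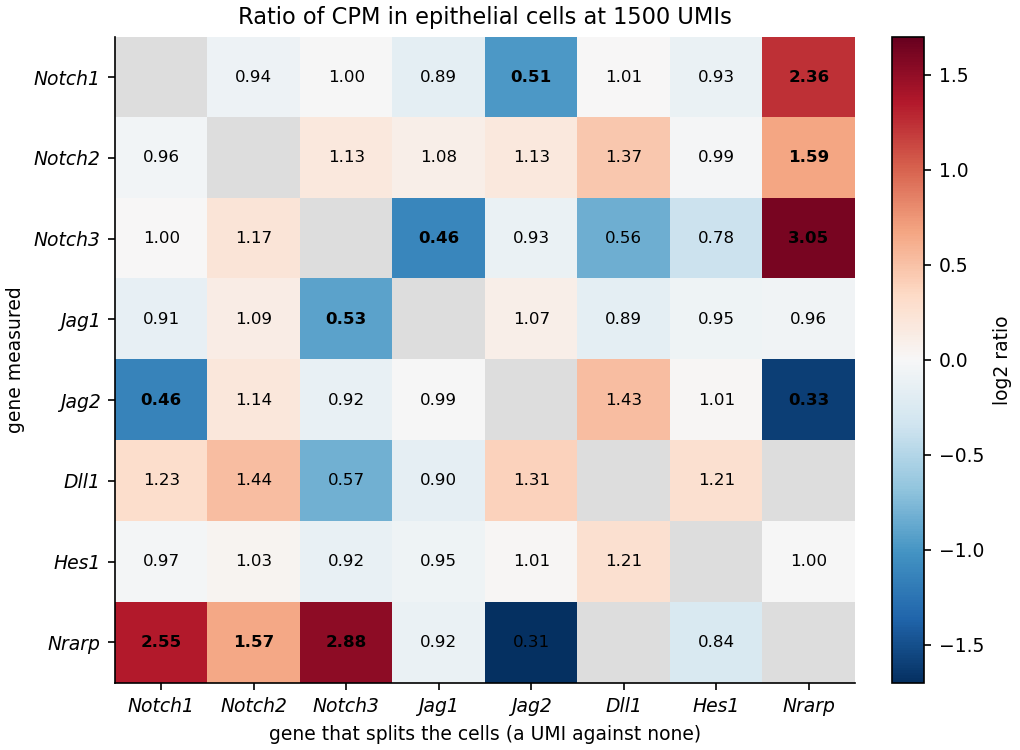
Ratio of CPM of the gene on the vertical axis in epithelial cells with a UMI of the gene on the horizontal axis over cells without one, at 1500 UMIs per cell, coloured by log2 ratio and in bold where past the fold. The Nrarp row is red for Notch1, Notch2 and Notch3, the crossings of Notch1 with Jag2 and Notch3 with Jag1 are blue, and the Hes1 row stays near 1.

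Cells rich in target RNA were then described. The 1282 epithelial cells with at least 2 thinned UMIs of Hes1, Hey1 and Nrarp together were set against the 6427 with 0; this split is mostly one by Hes1. Of 7 members, 2 were past the fold, Hes1 and Nrarp, and both set the split. Past the fold were 2.42% of 8622 genes upwards and 1.53% downwards. Notch1 stood at 1.01 times (0.732 to 1.36), Notch2 at 1.09, Notch3 at 0.99 and Jag2 at 0.96, and 0 of 38 other pathway genes was past the fold. The 10 genes with the largest ratio were Fmo2 at 3.43 (2.55 to 4.59), Ltf at 2.82 (2.45 to 3.25), Arg1 at 2.38 (1.66 to 3.38), Olfm4, Cebpa, Fos, Nlrp10, Adam28, Socs1 and Hist1h2br. Ltf is a gene of the secretory list in which Hes1 stood 1.28-fold higher, and Cebpa encodes a transcription factor of epithelial and myeloid differentiation. Split by single members, the 5 leading genes for Jag1 were Il1rl1 at 1.78 (1.40 to 2.25), Clstn2, Prl2c5, Vegfc and Naa16. Those for Hes1 were Elmo1 at 2.08 (1.64 to 2.64), Fmo2, Ltf, Fos and Adam28. Those for Notch2 were Tagln at 2.42 (1.72 to 3.33), Dclk1, Hsf2, Hoxa3 and Prkch. For Notch1 they were Adgre5, Zranb3, Kif2c, Shld2 and Nptxr, at 2.36 to 3.27, and for Jag2 Mapk8ip3, Mcam, Them4, Spc24 and Hoxaas3, at 2.203 to 2.43. For Notch3 (Cybb, Sult2b1, Cd46, Fxyd4 and Plekhg1), Dll1 (Klhl25, Nfatc1, Tmem108, Timeless and Kif14) and Nrarp (Gstt1, Krt15, Ccl8, Smim5 and C130036L24Rik) the leading genes had 4 to 10 UMIs in the cells with the member.

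Likeness of pattern was measured as Pearson r of log2(CPM + 10) over 15 sets of cells, which share cells, among 8217 genes. Closest to Notch3 were Aldh3a1 (r = 0.959) and Aldh1a3 (0.956), 2 aldehyde dehydrogenases, and Il33, an alarmin cytokine (0.944). Aldh3a1 ranged from 6.85 CPM in mesenchymal to 204.8 CPM in Ly6d-high cells. Closest to Jag2 were Ccl9 (0.946), Trpv4 (0.933) and Sema3c (0.931), all highest in Wfdc18-high and lowest in mesenchymal cells. Closest to Notch1 were Upf3b, Crybg1 and Ipo7, to Notch2 Eloa, Camk1 and Herc2, and to Jag1 Shox2, Sox6 and Tgfbi. Closest to Nrarp were Ap3s1, Mocs2 and Adgre5, to Hes1 Susd6, Npc1 and Chd9, to Dll1 Rad51b, Dag1 and Map2k3, and to Hey1 Piezo1, Extl2 and Rab7, with r from 0.853 to 0.947 over these 7 members. The highest of 8217 correlations over 15 points is large by selection alone, so these are names to look up and no more.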

How the data were processed

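Droplet single-cell RNA sequencing of PC cells gave a gene expression, a barcode and a scar library, per the labels' protocols (10x 3' v2 kit, Illumina NovaSeq, mapping with CellRanger). The deposited values are counts, whole UMIs per gene and barcode that nothing had normalized, and come from CellRanger 8.0.1 per the file headers; the submitters' processing notes name mm10, Cell Ranger and Scanpy 1.8.2. The matrix names no library, so it was treated as 1 pooled sample. Its 32287 features are 32285 mouse gene IDs and 2 added sequences. The lowest deposited total was 500 UMIs per barcode, and 0 barcodes were repeated. Whether counting used strand is not given in the sources used here: genes antisense to Notch1 (0610009E02Rik, Gm13568), Notch3 (Gm17276) and Nrarp (Gm38287) are in the matrix, so their reads may not be told apart.

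Cells were filtered, thinned to 1500 UMIs (seed 1) and gated in Python 3.11.15 with numpy 2.4.6, scipy 1.17.1 and pandas 2.3.3. Levels use all UMIs of gated cells; co-variation and target splits use thinned counts. Intervals are exact Poisson for levels, exact conditional binomial for ratios and Clopper-Pearson for shares. PCR duplicates are removed by UMIs. For Heyl and Mfng, at 0 UMIs, the level that 3 UMIs would give is stated. The limit for Jag2 at 0 UMIs is the upper end of its exact Poisson interval. Kept cells held 1000 to 23453 UMIs, which sets the precision. Scrublet in scanpy 1.11.5 called 1 doublet, not a working call, so doublets are taken as not removed. The calling step was run on simulated Poisson counts, with changes larger than the fold used here in genes above the epithelial levels of Notch3 and Nrarp. The simulation held no spread between cells. It therefore does not test calls of small folds at low levels.

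The 9 genes, the marker lists, the pathway list and the states were chosen with earlier results of these data known. Genes outside the 9 were named by rule: up to 5 pathway genes per direction with the largest ratio past the fold between the gates, the 10 genes of at least 20 CPM with the largest ratio with target UMIs, 5 per single member, and 3 by likeness to each. Pathway genes named otherwise (Psenen, Aph1a, Rbpj, Dtx3, Notch4, Dll3, Dll4, Hes5, Heyl, Mfng, Hey2 and Lfng) were chosen after their values were seen. Alternatives were other filters, seeds, thinning depths, gate thresholds, percentiles, folds, minimum levels, denominators and a cut on doublet scores. The crossed sets, bins, CACGTG search and subsets without mitosis or epithelial UMIs were added after the values were seen. Lineage barcodes and scars were not used here, and the values of 1 pathway gene are not reported here.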

Additional observations from a re-analysis of the deposited data

How the results depend on the processing

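Over 16 settings, 13 planned and 3 added later, 56 single ratios and levels gave 542 values: 513 moved by less than their counting interval, 23 moved by more and 6 reversed. The Notch1, Jag2 and Nrarp calls between gates, the Notch3, Nrarp and Jag2 calls with Ly6d and all 4 secretory calls were kept in 14 of 14 alternatives, as were Notch3 with Wfdc18 and with chemokines. Notch3 with mitosis was kept in 13 of 13. Lost in 1 of 14 were Notch3 with Krt7 and laminin-332, Nrarp with Wfdc18 and with squamous markers, and Jag1 and Jag2 with chemokines. Lost in 2 were Jag1 with Ly6d and Notch3 with squamous markers, in 3 Jag2 with Wfdc18 and Notch2 with squamous markers, and in 4 Notch1 with chemokines and with squamous markers. Lost in 6 were Nrarp with Ly6c1 and Pate14 and Jag2 with squamous markers, and in 10 Notch2 with chemokines. Nrarp with mitosis was lost in 3 of 13. Reversals touched ratios from few UMIs. With differentiated squamous markers, Nrarp was at 0.691 (thinned to 2000 UMIs), Notch2 at 1.14 (thinned to 1000), and Jag2 at 1.05 (another seed) and 1.00 (thinned to 1000). Nrarp with Ly6c1 and Pate14 was at 0.945 (gating without thinning), and Nrarp with Notch2 UMIs at 0.975 (leaving out the top 10% by doublet score). The cause was not tested.

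The summed level of the 9 genes, 687.6 CPM, moved to 658.2 with at least 1000 genes and 2000 UMIs, 738.2 as a mean of per-cell CPM and 730.4 without mitochondrial, GFP and Scar UMIs. The 3 calls between gates became 4 with Notch2 added towards mesenchymal cells (another seed; thinned to 2000; gating without thinning; without high doublet scores) or Jag1 added (mean of per-cell CPM), 5 (thinned to 1000; that denominator; cells with 0 mitosis UMIs) and 6 (no minimum level), with Jag1, Notch2, Notch3, Dll1 and Hey1 the ones that entered in one or another. The 25 state calls became 13 at a fold of 2 and 39 with no minimum. The 2 calls with mesenchymal division became 1 and 7 in the same order, and could not be compared, with under 50 high cells, under another seed, thinned to 1000, 1 more marker UMI or without high doublet scores. The 11 co-varying pairs became 19 thinned to 1000, where Notch1 with Jag2 lost its call in both orders; thinned to 2000, Notch1 with Jag2 and Notch3 with Jag1 lost theirs in both orders. The 341 genes past the fold with targets became 1136 thinned to 1000, 147 thinned to 2000, 36 at a fold of 2 and 6504 with no minimum. No paired analysis was possible because there is 1 sample.

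Depth limits Dll1, Hey1, Notch3 and Nrarp most: each had under 500 UMIs in kept cells. With 1 culture, no difference was checked against the spread between cultures.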
